A study of Homo sapiens with 9 samples.

Results

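The 10 genes described here are the AP-1 subunits FOS, FOSB, FOSL1, FOSL2, JUN, JUNB and JUND, the related factor ATF3, and the zinc finger factors EGR1 and EGR3. They were found by their symbols among 58676 genes of a count table, of which 31914 had at least 1 count. All 10 had counts, and 9 of the 10 were among the 15975 genes that passed the filter on low counts, with EGR3 as the exception. RNA was sequenced from OVCA433, an established cell line labelled as ovarian serous adenocarcinoma and as wild type in genotype. Cells received a control vector, shRNA #1 against MPZL3 or shRNA #3 against MPZL3, as 3 libraries in each group (replicates A, B and C), or 9 libraries in total. The libraries of all groups carry a vector delivered by transduction, each group is a transduced population of this line, and no time or dose is given in the labels. The study's text calls this control both an empty vector and a scramble construct, so it is uncertain whether it expresses a hairpin. The methods state 3 biological replicates per condition, and p-values here measure the spread between these libraries. MPZL3 is a transmembrane protein with an immunoglobulin domain and a predicted role in cell adhesion, and the study asked what its loss does to ovarian cancer cells.

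AP-1 is a dimer of basic leucine zipper proteins in which a JUN protein pairs with another JUN, a FOS or an ATF protein on short DNA sites. Many of its genes are immediate early genes, whose RNA rises within minutes of growth factor, stress or adhesion signals through MAP kinases, serum response factor and its ETS partners, and then decays quickly. FOSL1 and JUN are known for long-lasting activity in invasive carcinoma cells, JUNB and JUND can act against JUN in growth control, and EGR1 is driven by the same kinases as FOS.

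EGR1 fell most, ATF3 fell and JUN rose after MPZL3 knockdown, while FOSL1 and FOSL2, the most abundant FOS family RNAs, did not pass the test. FOS was also called lower with both hairpins pooled, at 3 to 30 reads per library. That call was lost on leaving out any 1 of 4 libraries. JUND was lower with each hairpin, by less than 2-fold. Levels below are counts scaled to library size with TMM factors (CPM), and a gene was called changed at an edgeR adjusted p under 0.05 with at least a 2-fold change (1 on the log2 scale). With both hairpins pooled as the study grouped them, 4 of the 9 tested factors were called, 1 higher and 3 lower, against 14.7% of all tested genes (7.26% higher and 7.4% lower). Both hairpins were compared with the same 3 control libraries, so their values below are not independent of each other.

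The start regions of 4 factors that differed between the groups are shown because EGR1, ATF3 and JUN were called and JUND passed the adjusted p with both hairpins. The sequences come from RefSeq on GRCh38.p14, read 5′ to 3′ on the gene's strand, and entries were present for 8 of the 10 factors, with 2 starts for ATF3. FOSL1 and EGR3 had no entry. The window searched was the 250 bases before each start. Capitals in EGR1 mark CArG boxes, the site of serum response factor, at -105 to -96 and -83 to -74. Capitals in JUND mark TGACGTCA, the cyclic AMP response element (CRE), at -200 to -193. Capitals in JUN and ATF3 mark TGACATCA, a letter variant of the AP-1 and CRE sites, at -67 to -60 in JUN and at -123 to -116 at the first ATF3 start. For JUN and ATF3 a stretch of 30 bases is given, and the JUN stretch lies inside the gene as the count table places it.
EGR1, chr5:138465229-138465478, plus strand: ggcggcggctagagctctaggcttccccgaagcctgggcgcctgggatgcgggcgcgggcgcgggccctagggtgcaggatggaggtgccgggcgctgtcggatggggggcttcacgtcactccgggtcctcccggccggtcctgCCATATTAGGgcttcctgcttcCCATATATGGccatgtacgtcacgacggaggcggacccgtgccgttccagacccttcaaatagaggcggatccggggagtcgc
JUND, chr19:18281623-18281872, minus strand: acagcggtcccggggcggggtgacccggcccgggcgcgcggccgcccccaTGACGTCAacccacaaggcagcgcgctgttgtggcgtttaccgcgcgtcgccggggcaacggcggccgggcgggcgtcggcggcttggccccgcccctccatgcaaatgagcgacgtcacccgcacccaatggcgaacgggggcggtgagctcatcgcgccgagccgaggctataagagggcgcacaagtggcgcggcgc
JUN, chr1:58784096-58784125, minus strand: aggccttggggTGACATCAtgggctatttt
ATF3, chr1:212565273-212565302, plus strand: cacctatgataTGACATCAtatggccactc

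On both strands, a CArG box was present in 1.16% of 35116 promoter windows of this length, TGACATCA in 2.37% and TGACGTCA in 1.65%. The 8-letter TGACATCA stood upstream of JUN, which rose, and of ATF3, which fell. The classical AP-1 letters TGAGTCA occurred in 4.2% of all windows and the EGR letters GCGTGGGCG in 0.72%, and neither occurred in a window of these 8 factors. TATAAA on the gene's strand was found in 6.8% of all windows. It stood at -33 to -28 in FOS, -30 to -25 in FOSB and -31 to -26 in JUNB. At the second ATF3 start it lay farther upstream, at -230 to -225. The letters were not tested for binding and are a description only. The motifs were chosen with the values known, and the matches do not overlap one another.

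The targeted gene was checked first. MPZL3 was at 15.6, 21.9 and 21.0 CPM in control A, B and C, at 1.87, 1.98 and 1.80 CPM with hairpin #1 and at 1.94, 0.988 and 1.80 CPM with hairpin #3. The groups did not overlap, and the pooled log2 fold change was -3.49 (SE 0.191, edgeR adjusted p = 6.87e-08). Library totals ran from 16850854 to 23890191 counts, so that 3 counts correspond to 0.129 to 0.177 CPM. Mitochondrial genes held 2.75 to 4.01% of the counts. The keratin RNAs and PAX8 that mark serous epithelium were present, whereas WT1 had no count in any library and MUC16 had none in the 6 knockdown libraries. The summed level of the 8 epithelial markers was 11126 to 13967 CPM in control and 5251 to 6811 CPM in knockdown cells, with KRT8, KRT18, KRT19 and EPCAM called lower in the pooled comparison at log2 fold changes of -1.18, -1.41, -3.82 and -5.81. MUC16 was also called lower, KRT7 was not called, and PAX8 was called higher at 1.07. The 5 leukocyte and endothelial markers summed to 0.690 to 1.31 CPM in all libraries. The part of these epithelial marker changes in the values below was not tested, and in bulk RNA fewer cells with a transcript and less transcript per cell cannot be told apart.

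**Figure D1:**
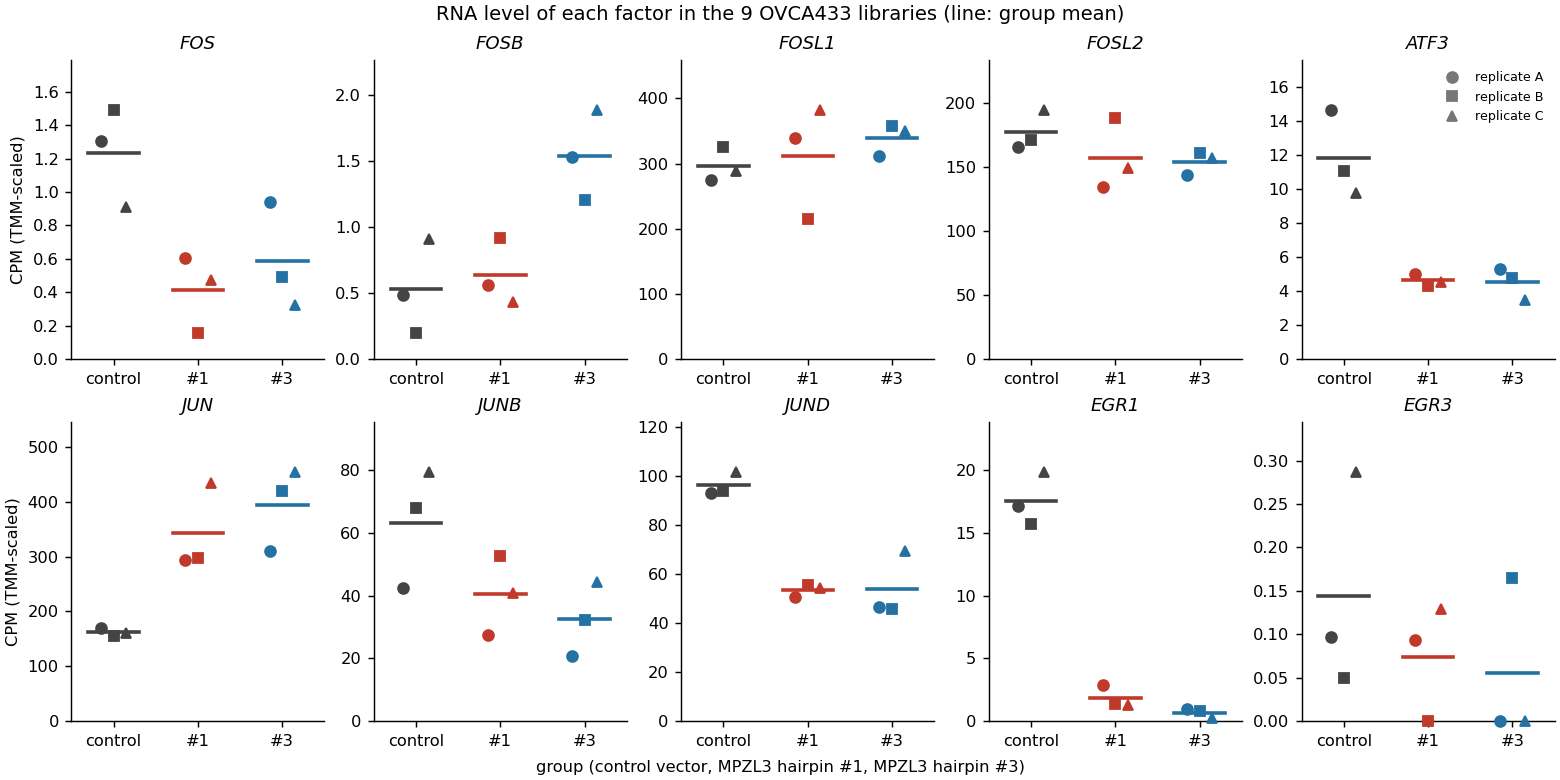
RNA level of the 10 factors in CPM (vertical axis, linear, own scale per gene) in control, hairpin #1 and hairpin #3 libraries (horizontal axis), with 1 point per library, its shape giving the replicate letter, and a line at the group mean. The control points of EGR1 and ATF3 lie above and those of JUN below all 6 knockdown points, while the FOSL1 points of the 3 groups lie among each other and EGR3 stays under 0.3 CPM.

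EGR1, a zinc finger factor that growth factors and adhesion induce, lies on chromosome 5 (138465490 to 138469315, plus strand). Its level was 17.1, 15.7 and 19.8 CPM in control A, B and C, 2.85, 1.37 and 1.24 CPM with hairpin #1, and 1.00, 0.768 and 0.276 CPM with hairpin #3. Every knockdown library lay below every control library, and every hairpin #3 library lay below every hairpin #1 library. In raw counts, EGR1 had 315 to 415 reads per control library and 6 to 61 per knockdown library. The pooled log2 fold change was -3.79 (SE 0.404, edgeR adjusted p = 1.91e-05), a 13.9-fold lower level. With hairpin #1 it was -3.27 (SE 0.306, edgeR adjusted p = 2.04e-06) and with hairpin #3 -4.73 (SE 0.358, edgeR adjusted p = 2.85e-07). The difference between hairpins, -1.46 (SE 0.415, edgeR adjusted p = 0.0371), was the only one called among the 9 factors in hairpin #3 against hairpin #1, where 3.93% of all tested genes were called. That call was lost without control B, hairpin #1 A, hairpin #1 B, hairpin #3 B or hairpin #3 C, where the value lay between -1.61 and -0.99, and in a fit of the 6 hairpin libraries alone (-1.45, edgeR adjusted p = 0.0857).

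The other EGR members were scarce. EGR3, which shares the EGR DNA site, had 1 to 6 counts per control library, 0 to 3 with hairpin #1 and 0 to 3 with hairpin #3. It did not pass the filter, and no fold change is given at this depth. EGR2 and EGR4 had no count in any library. NAB1 and NAB2, corepressors that bind EGR proteins, had log2 fold changes of 0.85 (SE 0.152, edgeR adjusted p = 0.00109) and 0.53 (SE 0.164, edgeR adjusted p = 0.0266), both under the 2-fold threshold, and were named here for their role after the values were seen.

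ATF3, a stress-induced factor that can repress as a homodimer and pairs with JUN proteins, lies on chromosome 1 (212565334 to 212620777, plus strand). It was at 14.7, 11.05 and 9.75 CPM in control A, B and C, at 5.0, 4.32 and 4.54 CPM with hairpin #1 and at 5.30, 4.77 and 3.50 CPM with hairpin #3. The lowest control library was above the highest knockdown library. ATF3 fell by 1.37 on the log2 scale (SE 0.167, edgeR adjusted p = 5.65e-05). The 2 hairpins gave log2 fold changes of -1.35 and -1.39, and their difference of -0.04 (SE 0.207) was not called (edgeR adjusted p = 0.939).

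JUN, the founding AP-1 subunit, lies on chromosome 1 (58780788 to 58784327, minus strand). It was at 169.6, 156.0 and 161.1 CPM in control A, B and C, at 294, 297 and 435 CPM with hairpin #1, and at 310, 419 and 454 CPM with hairpin #3. The 3 control libraries lay close together, and each knockdown library was above them. JUN rose by 1.18 on the log2 scale with both hairpins pooled (SE 0.163, edgeR adjusted p = 1.52e-04), by 1.08 with hairpin #1 (SE 0.165, edgeR adjusted p = 1.70e-04) and by 1.28 with hairpin #3 (SE 0.165, edgeR adjusted p = 4.36e-05). Without hairpin #1 C, the hairpin #1 value was 0.86 (edgeR adjusted p = 5.37e-04), under the 2-fold threshold.

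JUND, a subunit that is expressed steadily in most resting cells, lies on chromosome 19 (18279760 to 18281622, minus strand). It was at 93.0, 94.0 and 101.6 CPM in control A, B and C, at 50.7, 55.7 and 54.4 CPM with hairpin #1 and at 46.5, 45.8 and 69.2 CPM with hairpin #3. Control and knockdown libraries did not overlap, with hairpin #3 C the nearest to control. The pooled difference of -0.84 on the log2 scale (SE 0.121, edgeR adjusted p = 2.11e-04) passed the adjusted p and stayed under the 2-fold threshold, and 33% of all tested genes passed the adjusted p at any fold. It was also -0.84 with each hairpin, and -1.06 with hairpin #3 when its replicate C was left out.

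JUNB, which is induced early and can restrain JUN, lies on chromosome 19 (12791496 to 12793315, plus strand). Its level was 42.4, 67.9 and 79.3 CPM in control A, B and C, 27.6, 52.6 and 40.9 CPM with hairpin #1, and 20.6, 32.2 and 44.3 CPM with hairpin #3. Control A lay among the knockdown libraries, so the groups overlapped, although in each letter both hairpin libraries were below the control library. The pooled log2 difference was -0.80 (SE 0.262, edgeR adjusted p = 0.0352), under the 2-fold threshold, and it was -1.02 without control A (edgeR adjusted p = 0.0170), past both thresholds. With hairpin #1 the difference was -0.65 (edgeR adjusted p = 0.0888) and with hairpin #3 -0.96 (edgeR adjusted p = 0.0185), and the latter passed both thresholds without control A (-1.18) or hairpin #3 C (-1.26). Without control C, neither the pooled nor the hairpin #3 difference passed the adjusted p (edgeR adjusted p = 0.176 and 0.0830). JUNB overlaps HOOK2 on the opposite strand over 259 of its 1820 exon bases (14.2%), and HOOK2 was itself lower after knockdown (log2 fold change -2.07, edgeR adjusted p = 6.62e-06). Since the reads carry no strand, their part in the JUNB counts was not tested.

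FOSL1 and FOSL2, the Fra proteins, whose RNAs last longer than that of FOS, carried most of the FOS family RNA. FOSL1, on chromosome 11 (65892049 to 65900573, minus strand), was at 274, 325 and 289 CPM in control A, B and C, at 339, 215 and 382 CPM with hairpin #1 and at 311, 357 and 349 CPM with hairpin #3. Hairpin #1 held both the lowest and the highest library, and the groups overlapped. The pooled log2 difference was 0.14 (SE 0.154, edgeR adjusted p = 0.531). FOSL2, on chromosome 2 (28392448 to 28417312, plus strand), was at 166, 171 and 195 CPM in control A, B and C, at 134, 188 and 149.5 CPM with hairpin #1, and at 144, 161 and 157 CPM with hairpin #3. The hairpin #1 libraries overlapped those of control, while all 3 hairpin #3 libraries lay below the control libraries. The pooled log2 difference was -0.19 (SE 0.108, edgeR adjusted p = 0.213), and the hairpin #3 value of -0.20 (SE 0.123, edgeR adjusted p = 0.231) did not pass the test either.

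FOS and FOSB, the short-lived members, were near the limit of detection in every group. FOS, on chromosome 14 (75278774 to 75282230, plus strand), was at 1.31, 1.49 and 0.908 CPM in control A, B and C, at 0.607, 0.153 and 0.472 CPM with hairpin #1 and at 0.942, 0.494 and 0.322 CPM with hairpin #3. That is 19 to 30 reads per control library and 3 to 16 per knockdown library, and hairpin #3 A was above control C. FOS fell by 1.32 on the log2 scale when pooled (SE 0.416, edgeR adjusted p = 0.0294), with log2 fold changes of -1.56 for hairpin #1 (SE 0.483, edgeR adjusted p = 0.0216), also called, and -1.10 for hairpin #3 (SE 0.472, edgeR adjusted p = 0.0906). The pooled call was lost without control A (edgeR adjusted p = 0.0866), control B (0.126), hairpin #1 C (0.0516) or hairpin #3 C (0.0552). The hairpin #1 call was lost without control A (edgeR adjusted p = 0.0508), control B (0.0809) or hairpin #1 B (0.0809), and the hairpin #3 value was -1.60 (edgeR adjusted p = 0.0354), past both thresholds, without hairpin #3 A.

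FOSB, on chromosome 19 (45467995 to 45475179, plus strand), was at 0.484, 0.199 and 0.908 CPM in control A, B and C, at 0.561, 0.916 and 0.429 CPM with hairpin #1 and at 1.53, 1.21 and 1.89 CPM with hairpin #3. The hairpin #3 libraries, with 22 to 41 reads each, lay above the other 6 libraries, and the hairpin #1 and control libraries overlapped. FOSB rose with hairpin #3 by 1.53 on the log2 scale (SE 0.461, edgeR adjusted p = 0.0201), whereas the value with hairpin #1 was 0.23 (SE 0.502, edgeR adjusted p = 0.754). With both hairpins pooled it was 1.01 (SE 0.55, edgeR adjusted p = 0.186), and FOSB was not called. The difference between hairpins was 1.29 (SE 0.45, edgeR adjusted p = 0.0844) and was not called, but it was called with no filter on low counts (edgeR adjusted p = 0.0257) and in a fit of the 6 hairpin libraries alone (0.0489). The hairpin #3 call was lost without control A (edgeR adjusted p = 0.0547), control B (0.0811) or hairpin #3 C (0.0782). FOSB lies within the span of ERCC1 on the opposite strand, with no shared exon base, and ERCC1 had 1069 to 1747 counts per library, so unspliced reads of ERCC1 could not be told apart from FOSB.

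Counted over the 9 tested factors, hairpin #1 gave 1 called higher (JUN) and 3 called lower (EGR1, ATF3 and FOS), against 16.3% of all tested genes called (7.76% higher and 8.55% lower). Hairpin #3 gave 2 called higher (JUN and FOSB) and 2 called lower (EGR1 and ATF3), against 15.3% (7.46% higher and 7.83% lower). EGR1, ATF3 and JUN were called the same way with each hairpin, which 11.8% of all tested genes were. Control and pooled knockdown libraries did not overlap for 4 factors, EGR1, ATF3, JUN and JUND, and for 33.1% of all tested genes. The median log2 fold change of the 9 factors was -0.80, and that of all tested genes was 0.00454. Without the 3 replicate A libraries, the pooled counts were again 1 higher and 3 lower.

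**Figure D2:**
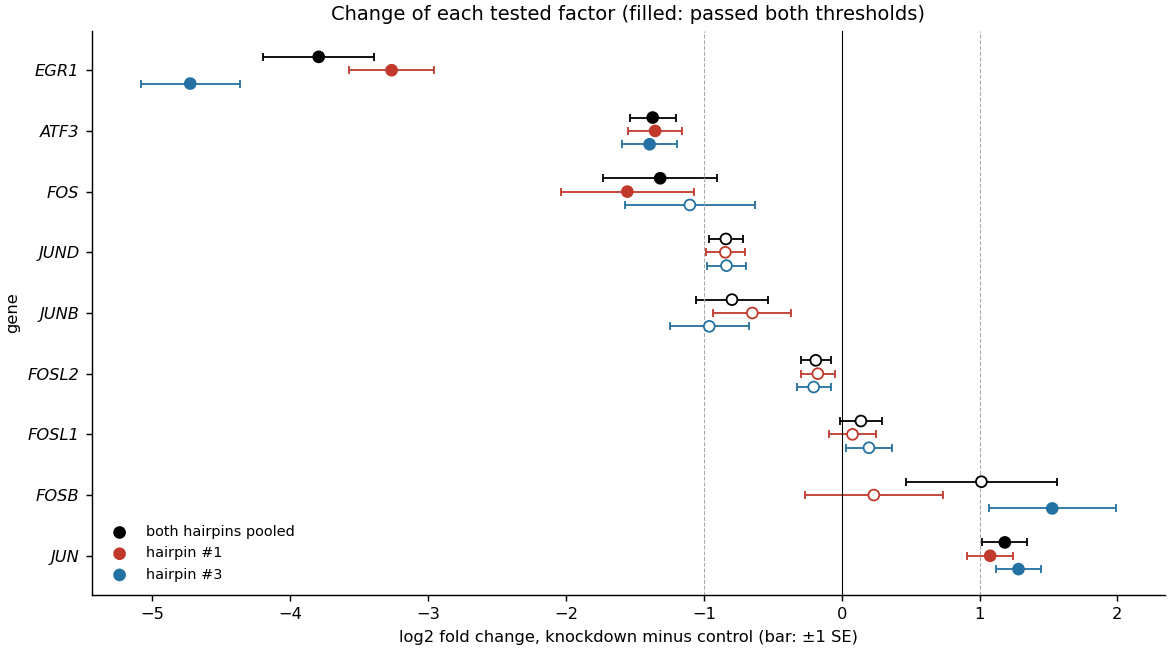
Fitted log2 fold change of the 9 tested factors (horizontal axis, knockdown minus control, bars of 1 SE) for both hairpins pooled, hairpin #1 and hairpin #3, with filled points for those past both thresholds and dashed lines at a 2-fold change. JUND and ATF3 have almost the same value with both hairpins, and EGR1 has -3.27 with hairpin #1 and -4.73 with hairpin #3.

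Each factor was also set against the 50 tested genes nearest to it on its chromosome, since a change of a whole region would move neighbours together. The median pooled log2 fold change of those neighbours lay between -0.21 (FOSL1) and 0.16 (ATF3) for the 10 factors. For EGR1 it was -0.13 and for JUN -0.06. The 4 factors called in the pooled comparison each differed from the median of their neighbours by more than 1 on the log2 scale. FOSB, which was not called, did so too. A call already required a log2 change of at least 1 and these medians were small, so the calls largely fixed this outcome. Whether a whole region changed was not tested.

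Per kilobase of gene length, where levels of different genes can be compared, FOSL1 led in all 3 groups, with 157 ± 13.8 CPM per kb in control (SD, n = 3). In control it was followed by JUND (51.6 ± 2.54), JUN (45.8 ± 1.93), JUNB (34.7 ± 10.4) and FOSL2 (24.8 ± 2.14), all in CPM per kb. The library ranges of JUNB and FOSL2 overlapped, and those of the other neighbours in this order did not. EGR1 (5.59 ± 0.672 CPM per kb), ATF3 (2.93 ± 0.632) and FOS (0.382 ± 0.0923) came next, and FOSB (0.0955) and EGR3 (0.0298) overlapped at the bottom.

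With hairpin #1 the order became FOSL1 (165 ± 45.9 CPM per kb), JUN (96.7 ± 22.7), JUND (28.8 ± 1.41), JUNB (22.2 ± 6.88) and FOSL2 (21.99 ± 3.89), and the ranges of FOSL1 and JUN overlapped, as did those of JUND and JUNB and those of JUNB and FOSL2. With hairpin #3 it was FOSL1 (180 ± 13.1 CPM per kb), JUN (111 ± 21.2), JUND (28.9 ± 7.16), FOSL2 (21.5 ± 1.26) and JUNB (17.8 ± 6.52), where only FOSL2 and JUNB overlapped among these 5. JUN thus came after FOSL1 and JUND in control and next to FOSL1 with each hairpin, and ATF3 stood above EGR1 with each hairpin and below it in control.

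Within the JUN family, the share of JUN in the summed CPM per kb was 39.6, 33.4 and 31.7% in control A, B and C, 66.3, 58.8 and 70.4% with hairpin #1, and 70.7, 73.7 and 67.6% with hairpin #3. Every knockdown share was above every control share. JUND held 39.2% ± 1.78 in control, 19.8% ± 2.66 with hairpin #1 and 18.3% ± 2.65 with hairpin #3 (SD, n = 3). JUNB held 26.0% ± 5.90, 15.1% ± 4.503 and 10.99% ± 1.85 in the same order. The summed level of the 3 genes was 132 ± 11.3 CPM per kb in control, 148 ± 24.9 with hairpin #1 and 158 ± 33.0 with hairpin #3, with overlapping ranges. In the FOS family, FOSL1 held 81.1 to 90.6% and FOSL2 9.34 to 18.7% of the summed CPM per kb over the 9 libraries, while FOS and FOSB each stayed under 0.24%. These shares restate the levels above and were not tested.

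**Figure D3:**
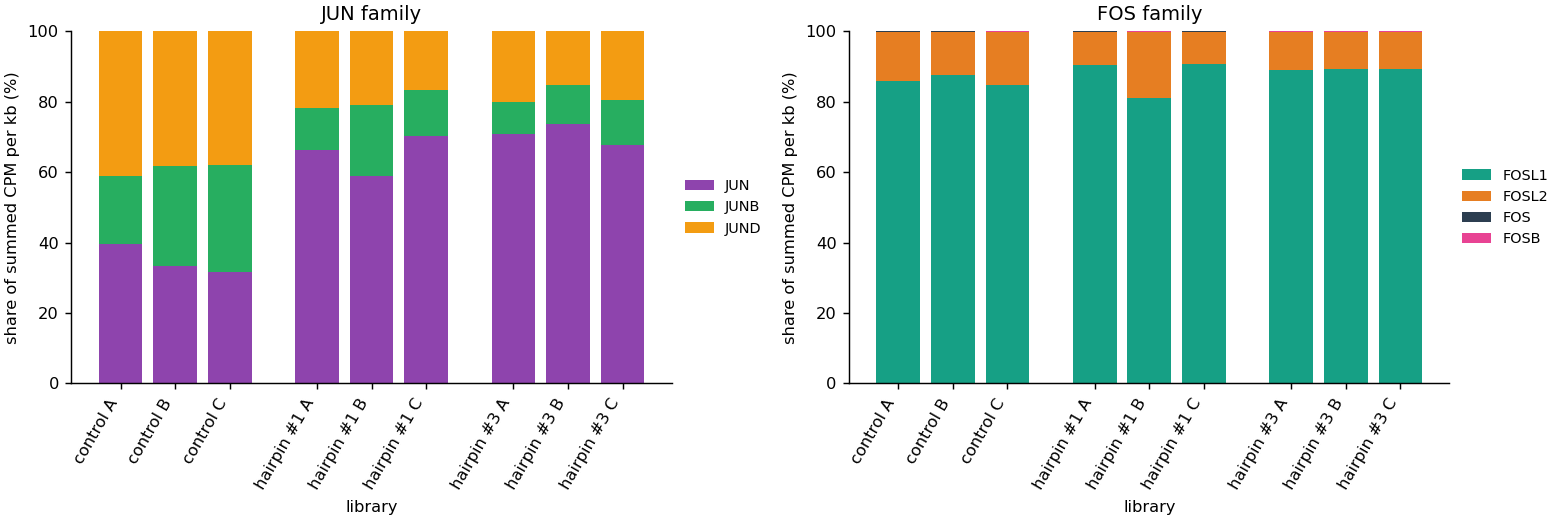
Share of each gene in the summed CPM per kb of its family (vertical axis, percent) in each of the 9 libraries (bars), for the JUN family on the left and the FOS family on the right. JUN holds 31.7 to 39.6% in control and 58.8 to 73.7% in knockdown libraries, and FOS and FOSB are too small to be seen beside FOSL1 and FOSL2.

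The replicate letters were compared because the libraries marked A stood apart in all 3 groups. Mitochondrial genes held 2.75 to 3.03% of the counts in the A libraries and 3.48 to 4.01% in the B and C libraries, and the part of this in the differences between letters was not tested. In a model with group and letter, 166 of 15975 genes (1.04%) were called in A against B and C, and edgeR called none of the 9 factors, as did DESeq2. An unadjusted edgeR p under 0.05 was found for 4 of the 9 factors and for 5410 of the 15975 tested genes. At any fold, 21% of all tested genes passed the edgeR adjusted p, and 1 of the 9 factors did, JUNB. In C against B, edgeR called no gene at these thresholds, with 3 genes at any fold and 1274 at an unadjusted p under 0.05, and DESeq2 called 0 as well.

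JUNB was 0.81 lower on the log2 scale in A than in B and C (SE 0.107, edgeR adjusted p = 2.84e-04), under the 2-fold threshold. Its A library was the lowest of its group in each of the 3 groups, as for 15.4% of all tested genes. FOSL2 was also lowest in A in each group, with a log2 difference of -0.20 (SE 0.0772, edgeR adjusted p = 0.0749). ATF3 was highest in A in each group, as for 16% of all tested genes, with a difference of 0.36 (SE 0.131, edgeR adjusted p = 0.0636). EGR1 and FOS had differences of 0.40 (SE 0.236) and 0.65 (SE 0.389), with edgeR adjusted p of 0.255 and 0.258. Without control A the EGR1 difference was 1.08 (edgeR adjusted p = 0.0327), past both thresholds.

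Among the pathway lists, which were chosen with earlier results known, 1 of 25 tested other immediate early genes, IER3, and 4 of 26 tested genes known as AP-1 targets, SERPINB2, CXCL8 and IL6 among them, were called in A against B and C, all lower in A. Over all tested genes, 1.04% were called. CXCL8, a neutrophil chemokine, was at 5.42, 15.4 and 14.3 CPM in control A, B and C, at 28.6, 129.5 and 93.4 CPM with hairpin #1, and at 17.6, 112.6 and 146 CPM with hairpin #3. It was 2.18 lower in A on the log2 scale (SE 0.199, edgeR adjusted p = 2.83e-05). IER3, an early response gene in cell survival, averaged 78.5 CPM over the A, 152 over the B and 166 over the C libraries, a log2 difference of -1.03 (SE 0.0981). SERPINB2 and IL6 lay under the abundance minimum for named genes and were named after their values were seen, with differences of -2.13 (SE 0.365) and -2.04 (SE 0.272). Of the 26 targets, 22 were lower in A at any size, with a median log2 difference of -0.25 against -0.02 for all tested genes. The 12 heat shock and chaperone genes had a median log2 difference of 0.23 in A against B and C. None of the 12 was called by edgeR or DESeq2. An unadjusted edgeR p under 0.05 was found for 9 of the 12 and for 5410 of the 15975 tested genes. At any fold, 7 passed the edgeR adjusted p (6 higher and 1 lower), against 21% of all tested genes. The IER3 call was lost without hairpin #1 B, hairpin #3 A or hairpin #3 C (-0.97 to -0.88), where the 2-fold threshold was missed.

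**Figure D4:**
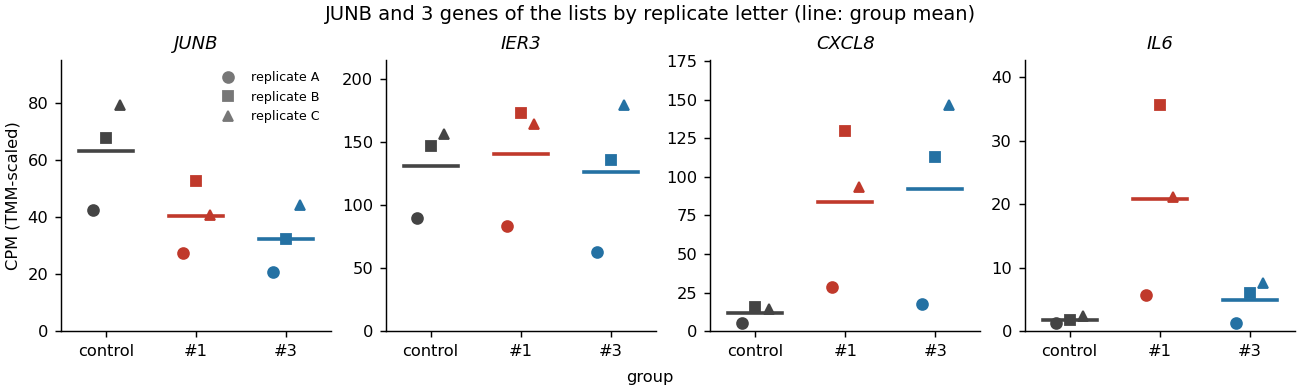
CPM (vertical axis, linear, own scale per gene) of JUNB, IER3, CXCL8 and IL6 in control, hairpin #1 and hairpin #3 libraries (horizontal axis), with the point shape giving the replicate letter and a line at the group mean. The A library is the lowest of its group in each panel, and the CXCL8 levels of the hairpin libraries run from 17.6 to 146 CPM.

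The rest of the pathway was described by the same lists in the pooled comparison, with values below in the order control, hairpin #1 and hairpin #3. Of the 36 genes of MAP kinase and serum response factor signalling, all tested, 1 was called higher and 1 lower (5.56%, against 14.7% of all tested genes), and the list's median log2 fold change was -0.09. RPS6KA2, a kinase activated by ERK, rose from 45.5 ± 1.498 CPM (SD, n = 3) to 87.9 ± 11.51 and 115 ± 19.9 (log2 fold change 1.155, SE 0.16, edgeR adjusted p = 1.54e-04). MAPK13, a p38 kinase, fell from 135.6 ± 15.1 CPM (SD, n = 3) to 61.8 ± 6.40 and 70.4 ± 8.26 (-1.04, SE 0.112, edgeR adjusted p = 2.10e-05), and without control C it was -0.95. With hairpin #1 alone, 0 genes of this list were called higher and 1 lower, and with hairpin #3 alone 2 higher and 0 lower. RPS6KA2 was thus not called with hairpin #1, nor MAPK13 with hairpin #3. SRF, the factor that binds CArG boxes, had a log2 fold change of -0.12 (edgeR adjusted p = 0.400) and was named for the boxes found at EGR1.

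Among 22 tested feedback inhibitors, 4 were called lower and none higher (18.2%, against 14.7% of all tested genes), with a list median of -0.10. ZFP36, which binds AU-rich immediate early RNAs and brings about their decay, fell from 24.4 ± 3.03 CPM (SD, n = 3) to 6.42 ± 0.543 and 5.39 ± 0.453 (log2 fold change -2.04, SE 0.129, edgeR adjusted p = 2.35e-07). DUSP4, a nuclear phosphatase of MAP kinases, fell from 94.9 ± 5.39 CPM (SD, n = 3) to 42.2 ± 8.498 and 42.8 ± 0.696 (-1.16, SE 0.107, edgeR adjusted p = 5.95e-06). DUSP10, a phosphatase of JNK and p38, fell from 37.0 ± 8.36 CPM (SD, n = 3) to 16.02 ± 0.803 and 16.7 ± 3.10 (-1.18, SE 0.149, edgeR adjusted p = 7.41e-05). The fourth, DUSP8, was under the abundance minimum and named after its value was seen (-2.43, SE 0.285).

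Among 25 tested other immediate early genes, 3 were called higher and 3 lower (24%, against 14.7% of all tested genes), with a list median of 0.03. KLF4, a zinc finger factor of epithelial cells, fell from 26.1 ± 3.92 CPM in control (SD, n = 3) to 2.77 ± 1.00 and 4.10 ± 0.778 (log2 fold change -2.92, SE 0.232, edgeR adjusted p = 1.66e-06). CTGF, a secreted matrix protein, rose from 88.9 ± 12.6 CPM (SD, n = 3) to 223 ± 104 and 325 ± 121 (1.62, SE 0.343, edgeR adjusted p = 0.00326). SGK1, a serum-induced kinase, rose from 8.91 ± 0.435 CPM (SD, n = 3) to 24.8 ± 5.602 and 23.4 ± 1.54 (1.43, SE 0.146, edgeR adjusted p = 1.33e-05). KLF2 was called higher and NR4A1 and TRIB1 lower, all named outside the rule after their values were seen. Of this list, SRF also stands in the signalling list.

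Of the 27 tested bZIP relatives, 4 were called higher and none lower (14.8%, near the 14.7% of all tested genes), with a list median of 0.12. CREB3L2, a membrane-bound factor of the secretory pathway, rose from 55.2 ± 5.87 CPM (SD, n = 3) to 158 ± 16.8 and 116 ± 13.4 (log2 fold change 1.31, SE 0.162, edgeR adjusted p = 6.39e-05). The others were BATF3, which dimerizes with JUN proteins (2.14, SE 0.262), BACH2 (1.46, SE 0.286) and CREB3L1 (1.37, SE 0.371), which were under the abundance minimum and named after their values were seen.

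The 26 tested genes known as AP-1 targets had 8 called higher and 6 lower (53.8%, against 14.7% of all tested genes), with a list median of 0.59. Those called include VIM and FN1, known as mesenchymal genes (2.21, SE 0.11, and 2.28, SE 0.307), named after their values were seen. The study itself reports VIM as raised by this knockdown, and the list was chosen with earlier results of these data known. Its share of 53.8% can therefore be set in part by that choice and is a description only. TNC, a matrix glycoprotein, rose from 22.4 ± 7.89 CPM in control (SD, n = 3) to 164 ± 43.9 and 126 ± 30.3 (log2 fold change 2.69, SE 0.273, edgeR adjusted p = 1.30e-05). CXCL8 rose by 2.91 on the log2 scale (SE 0.67, edgeR adjusted p = 0.00552), and at the same letter each hairpin library was above its control. ITGB6, an epithelial integrin subunit, fell from 92.8 ± 25.6 CPM (SD, n = 3) to 1.40 ± 0.195 and 1.72 ± 0.159 (-5.89, SE 0.175, edgeR adjusted p = 6.51e-10). No heat shock or chaperone gene of 12 was called, by edgeR or by DESeq2, at a median of -0.18. An unadjusted edgeR p under 0.05 was found for 2 of the 12 and for 6734 of the 15975 tested genes.

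**Figure D5:**
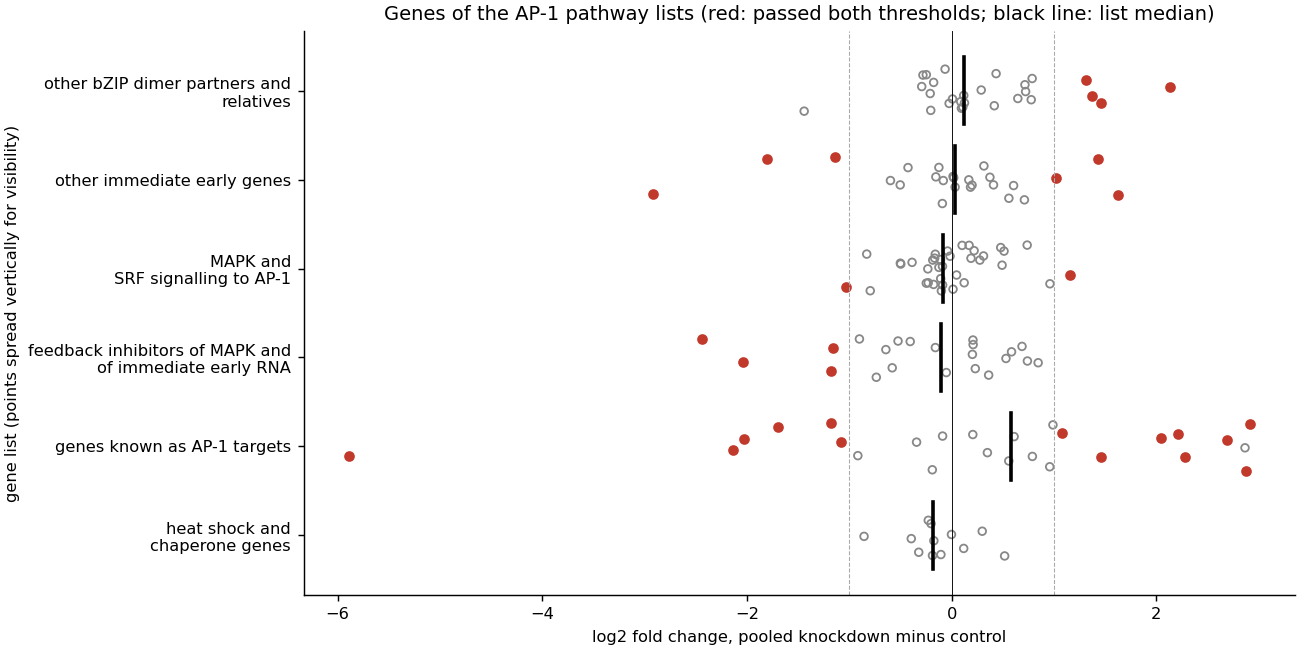
Log2 fold change of each tested gene in the 6 lists (horizontal axis, pooled knockdown minus control), 1 row per list, red for genes past both thresholds and a black line at the list median. The row of AP-1 targets has 14 red points on both sides of 0, the row of signalling genes has 2, and the row of feedback inhibitors has 4, all below 0.

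As a description with no test, the genes most like each factor were ranked by Pearson's r of log2 CPM over the 9 libraries, among genes that averaged 10 CPM or more. These points share the contrast between groups, so any gene that moved with knockdown scores high. EGR1 was most like ENDOD1 (r = 0.991), ERO1A (0.990) and GSR (0.987). JUN was most like EVA1A (r = 0.992), RASA3 (0.985) and POU2F2 (0.985), ATF3 like ASAP2 (0.986), UGP2 (0.984) and LRRFIP1 (0.980), and JUND like PDE8A (0.975), RHBDF1 (0.974) and CTD-2619J13.14 (0.972). JUNB was most like TRPT1 (r = 0.977), ECHDC2 (0.974) and SERTAD3 (0.971), and FOSL2 like LIMK2 (0.930), ANAPC16 (0.927) and IPP (0.925). For FOSL1 they were DUSP23 (r = 0.918), MAP2K2 (0.909) and RPL24 (0.907), for FOS PUSL1 (0.978), CDCA5 (0.971) and MRPL20 (0.966), and for FOSB PRRC2B (0.954), C12orf66 (0.950) and NBPF19 (0.943). The values of FOS and FOSB rest on few reads. Among the factors themselves, r was 0.94 for EGR1 with ATF3, -0.96 for EGR1 with JUN and 0.84 for JUNB with FOSL2 (n = 9 libraries).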

How the data were processed

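The authors sequenced poly(A) RNA as non-directional libraries, and the submitters' processing notes name HISAT2 2.0.5, featureCounts 1.5.0-p3 and hg38. The deposited values are raw read counts per gene, with no normalization or filter, in 1 table whose 9 columns match the library names in the labels. The deposited gene length equals the union of exons in GENCODE 29 (GRCh38) for all 11 genes checked, and their positions are the same there. Groups and replicate letters came from the sample titles.

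The counts were filtered with filterByExpr (minimum count 10, minimum total 15), scaled by TMM and tested in R 4.3.3 by the quasi-likelihood F test of edgeR 4.0.16. P-values were adjusted by Benjamini-Hochberg over 15975 genes. The pooled comparison set 6 knockdown against 3 control libraries. Hairpins were compared in a 3-group model, and letters in a model of group and letter. The SE is the log2 fold change divided by the root of F. Log2 CPM for likeness used a prior count of 2. DESeq2 1.42.0 was an alternative. The fit was tested on simulated counts with the same biological variation for every gene. The changed genes there were all more abundant than FOS and FOSB, so genes as scarce as these were not covered. The common biological variation was 13.1%. Replicates of a group correlated at 0.985 to 0.992 and differed by more than counting noise. Count floors cover counting error only.

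The factors, lists and comparisons were chosen with earlier results of these data known. Named genes were the factors, MPZL3, at most 3 called genes per list with a mean of at least 10 CPM and the largest fold change (pooled, and A against B and C), and the 3 genes most like each factor. Some genes that the rule or a list holds are not reported here.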

Additional observations from a re-analysis of the deposited data

Results flagged for a closer look

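EGR1 differed between the 2 hairpins, with a log2 difference of -1.46 (hairpin #3 minus hairpin #1, SE 0.415, edgeR adjusted p = 0.0371), tested directly as a contrast between the hairpins in the 3-group model. All 3 hairpin #3 libraries were below all 3 hairpin #1 libraries (0.276 to 1.00 against 1.24 to 2.85 CPM). The call was lost in 5 of 9 fits that left out a library, where the edgeR adjusted p lay between 0.0509 and 0.141. MPZL3 itself had a hairpin difference of -0.25 (SE 0.259, edgeR adjusted p = 0.614). The part of the depth of knockdown in the EGR1 difference was not tested.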

How the results depend on the processing

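The counts of called factors in the pooled comparison and with each hairpin stayed within 1.5 times of the reported 4 (3 to 6) under every alternative run, and the 0 in C against B stayed 0. In hairpin #3 against hairpin #1 the count of 1 became 2 with no filter, 0 at an adjusted p under 0.01, and 0 to 1 on leaving out a library. In A against B and C the count of 0 became 1 with no fold threshold (JUNB), and 0 to 1 on leaving out a library. MPZL3, and EGR1 and ATF3 in the pooled comparison and with each hairpin, kept their calls in every fit, as did JUN in the pooled comparison. Without the 3 replicate A libraries, an alternative added after the data were seen, FOS was called with hairpin #3 (-1.55, edgeR adjusted p = 0.0385).

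Signs turned only for differences that were not called, and the cause was not tested. On leaving out a library, the hairpin #1 value ran from -0.15 to 0.86 for FOSB and from -0.097 to 0.28 for FOSL1, which was -0.026 without the replicate A libraries. The difference between hairpins ran from -0.044 to 0.81 for FOS, -0.085 to 0.29 for FOSL1, -0.14 to 0.12 for FOSL2, -0.21 to 0.11 for JUND and -0.17 to 0.13 for ATF3. The difference of A from B and C ran from -0.29 to 0.22 for FOSB and from -0.18 to 0.060 for FOSL1. It was 0.017 for FOSL1 without the control group, 0.024 for FOSL1 without the hairpin #3 group and 0.015 for FOSB without the hairpin #1 group.

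The replicate letters carry no stated shared batch, and the main fits did not treat the letter as a pairing. Deviations from the group mean of same-letter libraries nevertheless correlated at 0.0651 to 0.655, all positive. A difference shared by a letter thus stays in the spread of the main fits of knockdown and hairpins. Of the 9 libraries, 8 correlated best with their own letter. With the letter as a replicate block, FOS was called with hairpin #3 (-1.14, edgeR adjusted p = 0.0485), and JUND turned to -0.0088 between hairpins. No count of called factors moved by more than 1.5 times under the block. The depth limits FOS, FOSB and EGR3, which had 41 reads or fewer in every library.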

Other observations

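Genes of the lists that differed between the hairpins were not described above and were picked with their values known. In hairpin #3 against hairpin #1, 1 of 27 bZIP relatives, 2 of 22 feedback inhibitors and 4 of 26 AP-1 targets were called. None of the 36 signalling, 25 other immediate early or 12 heat shock genes was called. Over all tested genes, 3.93% were called. Some of the called list genes are given here. SPRY1, an inhibitor of growth factor signalling to ERK, averaged 9.81 CPM in the control libraries, 2.87 ± 0.803 CPM (SD, n = 3) with the first hairpin and 7.70 ± 1.17 CPM with hairpin #3, a log2 difference between hairpins of 1.43 (SE 0.208, edgeR adjusted p = 6.42e-04). CREB5, a bZIP factor that can pair with JUN, averaged 4.20, 0.195 ± 0.129 and 2.92 ± 0.957 CPM in the same groups, a difference of 3.83 (SE 0.54, edgeR adjusted p = 5.01e-04). IL11, a cytokine of the IL-6 family, averaged 4.94, 8.06 ± 2.25 and 19.2 ± 1.23 CPM, a difference of 1.25 (SE 0.183, edgeR adjusted p = 6.47e-04). IL6 went the other way, with 20.8 ± 14.98 CPM with hairpin #1 and 4.97 ± 3.29 with hairpin #3, a difference of -2.04 (SE 0.574, edgeR adjusted p = 0.0352). It was at 1.21, 1.69 and 2.34 CPM in control A, B and C, and hairpin #3 A (1.29 CPM) lay among these. The hairpin groups overlapped, with hairpin #1 A at 5.65 CPM and hairpin #3 B and C at 5.98 and 7.64 CPM.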
